A study of Mus musculus with 7 samples.

Results

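Described here are 34 genes of adipocytes, the fat cells, chosen by name with earlier results of these data known. They cover hormones, lipid droplet proteins, enzymes of lipolysis, and proteins of fatty acid and glucose uptake, grouped with the glycerol channel Aqp7. The rest are enzymes of fatty acid and triglyceride synthesis, transcription factors, and 3 further genes abundant in or specific to fat. Of the 34 genes, 32 had a probe set that names the gene alone, out of 19937 genes measured in this way. Cfd and Adrb3 were not analysed here. White adipocytes store energy as triglyceride in a single large lipid droplet and release it again as fatty acids and glycerol. The nuclear receptor PPARgamma and C/EBPalpha switch on most of the genes that do this, and the cells also secrete hormones such as leptin and adiponectin that report on fat stores. Mouse skin holds a layer of such cells in and under the dermis, around the base of the hair follicles, and some of the same lipid genes also work in sebaceous glands, epidermis and muscle.

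RNA came from tissue of mice of a mixed C57BL/6 and 129 background, on 7 Affymetrix Mouse Gene 1.0 ST arrays in 4 groups, all labelled with topical 4OHT (4-hydroxytamoxifen). These were Iqgap1 knockout at day 6 (n = 2), day 6 wild type (n = 2), knockout at day 0 (n = 2) and, on a single array, wild type at day 0 (n = 1). The series design text named genotype and day of topical 4OHT, so the days count days of this treatment. Iqgap1 encodes a scaffold protein of the Ras-ERK kinase cascade. The labels gave no part of the body, did not say how the gene was deleted, and named no protein that 4OHT would act on. Whether replicates are separate mice is not given either. A p-value here thus covers the spread between the samples at hand, and that spread may be technical in part. All values are log2 RMA values as deposited (RMA is a method that corrects background, scales arrays to one another and summarises probes), and a difference of 1 is a doubling. Detection calls were not used here, and low values are compressed, so the fold change of a gene near the bottom of the scale is approximate.

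Iqgap1 itself stood at 8.58 and 8.67 in knockout and 10.11 and 10.59 in wild type at day 6, against 9.02 and 8.99 in knockout and 9.94 in the wild-type array of day 0, so every knockout array was under every wild-type array. The keratinocyte genes Krt5 (12.14 to 12.79) and Krt14 (11.71 to 12.89) were high on all 7 arrays, as was the muscle creatine kinase gene Ckm (10.90 to 12.88). Arrays correlated across genes at 0.979 to 0.991 within groups and 0.910 to 0.992 between groups. Replicate 1 of wild type had Xist, an RNA that cells make from the silenced X, at 10.30 at day 6 and 11.15 at day 0, against 3.55 to 4.03 on the 5 remaining ones. Eif2s3y and Kdm5d, both Y-linked, were low on these arrays and high on the others. The wild-type arrays of day 6 are thus 1 of each kind. They cannot be repeats of the same mouse, and the spread between them includes this difference. The single wild-type array of day 0 has Xist signal, so at day 0 genotype and this split cannot be told apart. Results are therefore also given without the 2 arrays with Xist signal or within them.

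The promoters of 5 members are shown because the first 4 belong to genes with large falls that are tied to fat cells and the fifth to the single member that rose. They are the 250 bases before the RefSeq start of each gene (GRCm38.p6), 5′ to 3′ on the gene's strand, with motif matches in capitals.
Lep, chr6:29059971-29060220, plus strand: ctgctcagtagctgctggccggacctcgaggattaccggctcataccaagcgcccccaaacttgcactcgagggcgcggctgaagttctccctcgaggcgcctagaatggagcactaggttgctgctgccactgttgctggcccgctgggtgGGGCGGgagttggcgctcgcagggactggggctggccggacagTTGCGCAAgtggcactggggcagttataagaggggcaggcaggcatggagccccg
Adipoq, chr16:23146286-23146535, plus strand: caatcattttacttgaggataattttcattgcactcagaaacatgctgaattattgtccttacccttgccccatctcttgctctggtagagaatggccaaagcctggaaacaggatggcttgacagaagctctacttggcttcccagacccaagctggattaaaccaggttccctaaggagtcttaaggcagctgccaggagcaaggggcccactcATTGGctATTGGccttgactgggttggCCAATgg
Retn, chr8:3655520-3655769, plus strand: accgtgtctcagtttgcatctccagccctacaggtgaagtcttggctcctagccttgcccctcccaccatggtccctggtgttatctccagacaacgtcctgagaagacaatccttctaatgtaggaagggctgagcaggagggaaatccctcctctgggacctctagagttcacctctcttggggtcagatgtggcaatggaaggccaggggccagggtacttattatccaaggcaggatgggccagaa
Plin1, chr7:79732777-79733026, minus strand: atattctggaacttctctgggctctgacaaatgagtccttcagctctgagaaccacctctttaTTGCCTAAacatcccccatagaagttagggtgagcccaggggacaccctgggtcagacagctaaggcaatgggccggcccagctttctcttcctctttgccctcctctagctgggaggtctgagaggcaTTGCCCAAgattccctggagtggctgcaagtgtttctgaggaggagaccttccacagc
Agpat2, chr2:26604418-26604667, minus strand: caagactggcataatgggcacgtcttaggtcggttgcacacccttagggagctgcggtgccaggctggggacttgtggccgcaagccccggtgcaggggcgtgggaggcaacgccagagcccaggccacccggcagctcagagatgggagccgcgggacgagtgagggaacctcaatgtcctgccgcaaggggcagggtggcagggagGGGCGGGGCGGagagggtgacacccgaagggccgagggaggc

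Capitals mark 6 motifs searched on both strands: the TATA box TATAAA, the CCAAT box CCAAT, the GC box GGGCGG, the E-box CACGTG, the C/EBP motif TTGCNNAA and the direct repeat AGGNCANAGGNCA of PPAR and its partner receptor. The C/EBP motif stood from 55 to 48 bases before the start of Lep, and in 2 places before Plin1. Adipoq had 3 CCAAT boxes, Agpat2 had 2 GC boxes that share 1 base, and Retn had no match to any of the 6. No match of one motif overlapped that of another in these windows. Over the 25 members with a promoter in the table, with all listed starts counted, the C/EBP motif occurred in 4 (Lep, Plin1, Cidec and Pparg), against 9.56% of 32851 promoters of all genes. The direct repeat occurred in 0 of the 25 and in 0.34% of all promoters. CCAAT boxes occurred before 11 members (33.85% of all promoters), GC boxes before 12 (32.74%), TATA boxes before 3 (12.37%) and E-boxes before 2 (6.02%). A member counted if any of its starts matched, while the shares are over single promoters, so counts and shares are not like for like. A match is a string of letters and does not show that a factor binds there.

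The first comparison was day 6 against day 0 over both genotypes (4 and 3 arrays). The hormone genes and many genes of fat storage were lower at day 6: 16 of the 32 fell and 1, Agpat2, rose at a limma adjusted p under 0.05 over all genes. The median log2 fold change of the 32 was -1.31, against 0.06 over all 19937 genes. Of all genes, 5.62% fell and 5.85% rose by the same test. The members were chosen with earlier results of these data known, so this contrast is descriptive. In each of the 16, all 4 day 6 arrays lay under all 3 day 0 arrays, which held for 9.66% of all genes; in Agpat2 all 4 lay above, which held for 11.9%. The other 15 members overlapped. In bulk tissue, fewer fat cells and less RNA per fat cell cannot be told apart. The count of falls was 10 without knockout day 6 replicate 2, and also 10 without knockout day 0 replicate 1. Without the 2 arrays with Xist signal, wild type has no day 0 array. That fit gives the knockout change alone (median -1.39) and is no check over both genotypes.

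**Figure D1:**
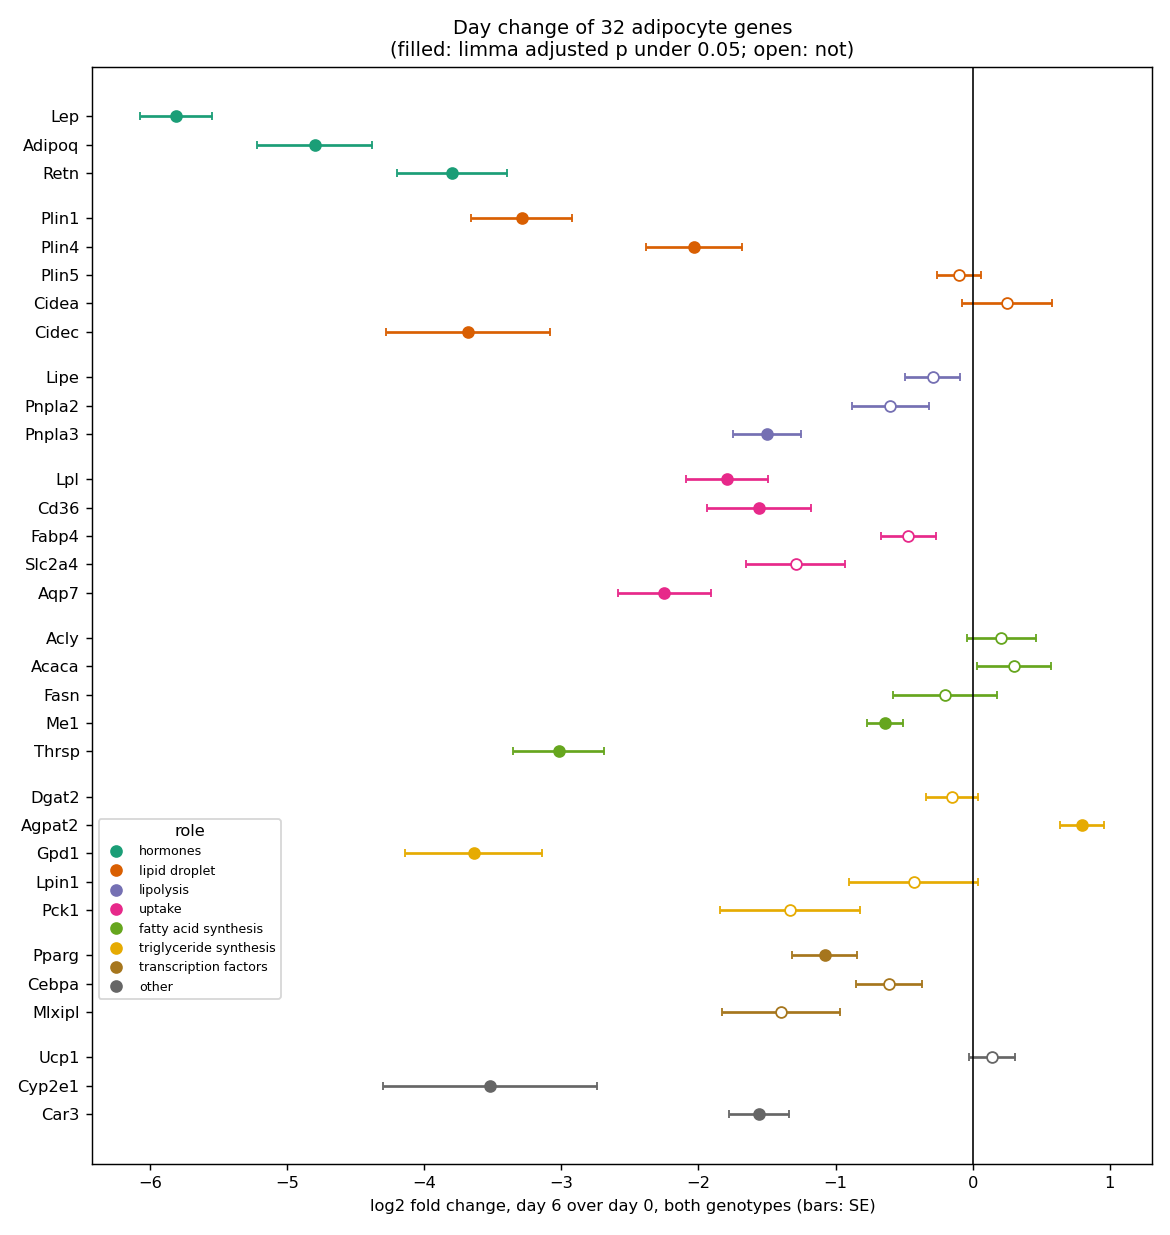
Log2 fold change of day 6 over day 0 over both genotypes (x axis) for the 32 measured adipocyte genes, ordered and coloured by role, with limma standard errors as bars. Filled points passed an adjusted p of 0.05: 16 lie left of 0 and Agpat2 lies right of it. Open points such as Fasn, Acly and Dgat2 lie close to 0, while those of Mlxipl (-1.40), Pck1 (-1.33) and Slc2a4 (-1.29) lie further left.

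All 3 measured hormones fell. Lep, the satiety hormone leptin, had 4.18 and 4.48 in knockout and 4.33 and 4.32 in wild type at day 6, against 10.71 and 10.52 in knockout and 9.42 in the wild-type array of day 0. The 4 day 6 arrays were close together and far under day 0, and they lay near the 3.50 to 4.25 at which Xist and the Y-linked genes read on arrays where they were off. The fitted change was -5.81 ± 0.26 (SE; limma adjusted p = 0.000188), the third largest fall of all genes, which would be 56.1-fold if the low values were true levels. Adipoq, the insulin-sensitising hormone adiponectin, had 5.03 and 6.66 in knockout and 6.42 and 5.98 in wild type at day 6, against 11.25 and 10.33 in knockout and 10.78 in the wild-type array of day 0. It was 27.8-fold lower (-4.80 ± 0.42, SE; limma adjusted p = 0.00196), and its lowest value was that of knockout day 6 replicate 1. Retn, which encodes resistin, a hormone that mouse adipocytes secrete, had 5.70 and 7.04 in knockout and 7.58 and 6.77 in wild type at day 6, against 10.55 and 10.68 in knockout and 10.30 in the wild-type array of day 0. It was 13.9-fold lower (-3.80 ± 0.40, SE), and the groups were again wide apart with knockout day 6 replicate 1 lowest.

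**Figure D2:**
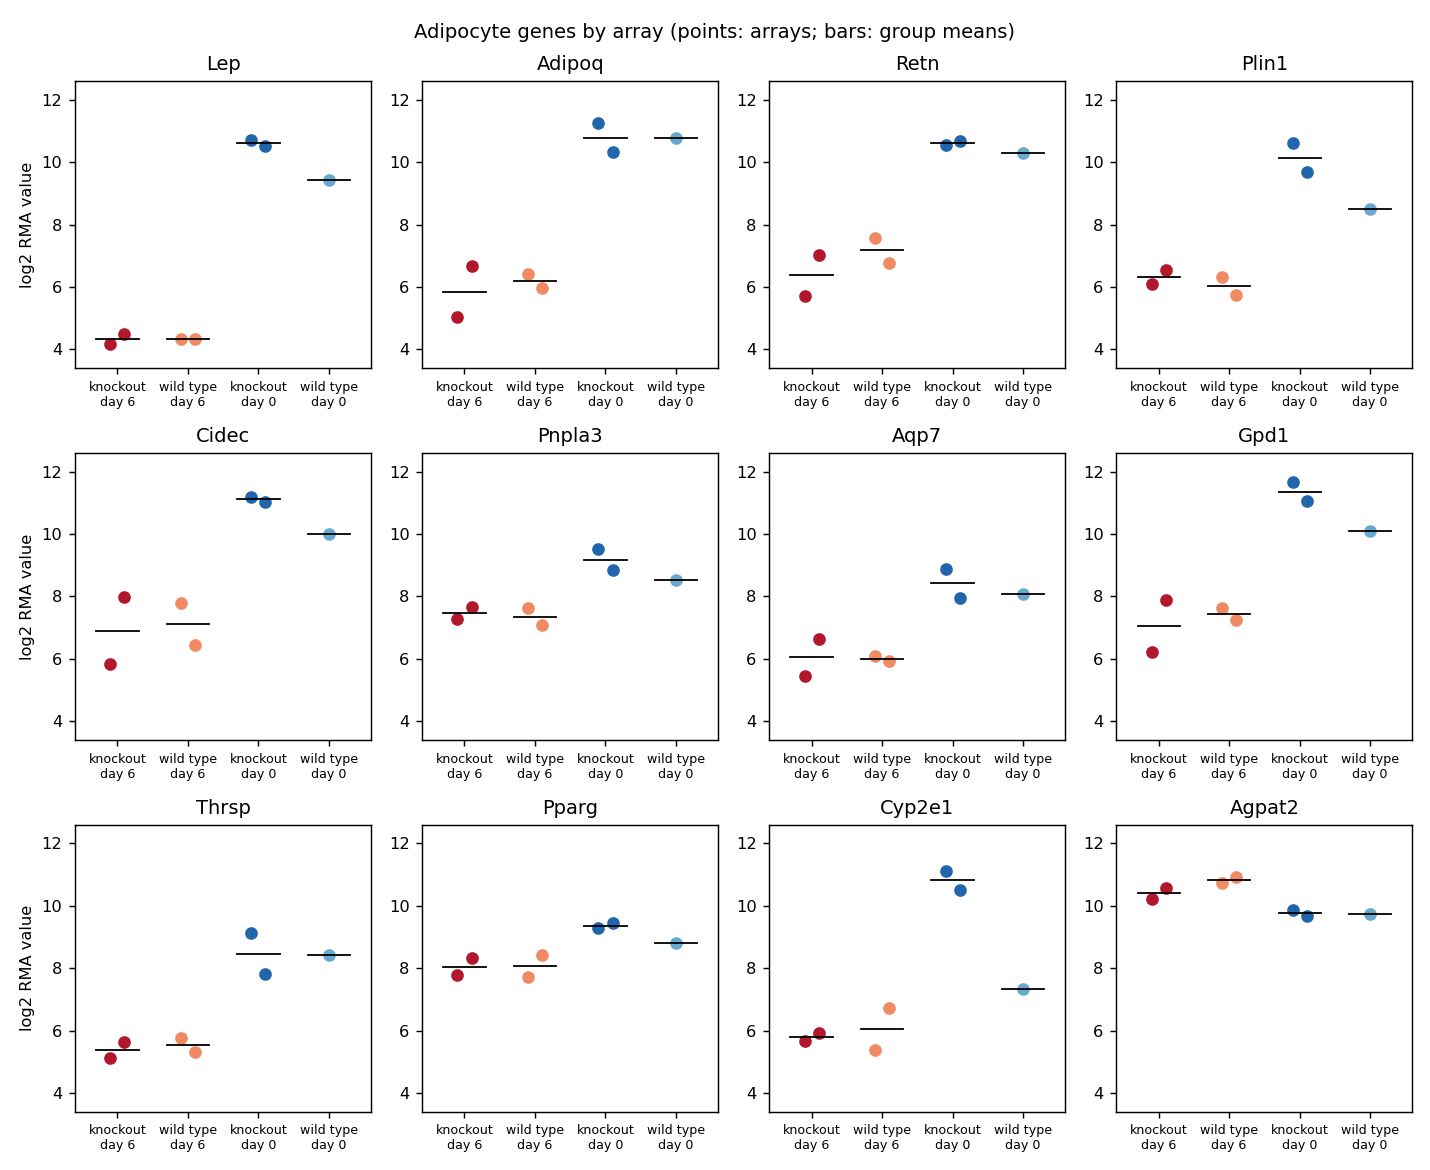
Log2 RMA values of 12 adipocyte genes on each array (points), with group means (black bars), for knockout and wild type at day 6 and at day 0. Day 6 points lie under day 0 points in every panel but that of Agpat2, and Cyp2e1 is lower in the wild-type day 0 array (7.33) than in both knockout day 0 arrays.

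Of 5 lipid droplet genes, 3 fell. Plin1 encodes perilipin 1, which coats the droplet and controls access of lipases to it; it had 6.09 and 6.54 in knockout and 6.32 and 5.74 in wild type at day 6, against 10.61 and 9.67 in knockout and 8.51 in the wild-type array of day 0. The change was -3.29 ± 0.37 (SE; limma adjusted p = 0.00418). At day 0 the wild-type array was the lowest of the 3, and at day 6 the genotypes overlapped. Cidec, whose protein fuses droplets into the single large one of white fat, had 5.82 and 7.98 in knockout and 7.79 and 6.45 in wild type at day 6, against 11.18 and 11.03 in knockout and 10.01 in the wild-type array of day 0. It was 12.8-fold lower (-3.68 ± 0.60, SE), and the knockout day 6 replicates held both the lowest and the highest value of that day. Plin4, another perilipin of droplet surfaces, had 6.85 and 7.62 in knockout and 6.68 and 6.90 in wild type at day 6, against 10.13 and 9.48 in knockout and 8.00 in the wild-type array of day 0 (-2.03 ± 0.35, SE). The remaining droplet genes did not pass. Plin5, a perilipin of oxidative tissues, lay between 4.92 and 5.51 at day 6 and between 5.31 and 5.37 at day 0. Cidea, a relative of Cidec known from brown fat and sebaceous glands in mice, lay between 8.46 and 9.39 at day 6 and between 8.08 and 9.16 at day 0 (0.25 ± 0.33, SE).

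Among 3 genes of lipolysis, the breakdown of stored triglyceride, Pnpla3 fell. Pnpla3, which encodes a lipid hydrolase and acyltransferase that is induced by feeding, had 7.26 and 7.65 in knockout and 7.63 and 7.08 in wild type at day 6, against 9.53 and 8.83 in knockout and 8.51 in the wild-type array of day 0 (-1.50 ± 0.25, SE; limma adjusted p = 0.0150). The lipases that do most of this work in fat cells did not pass over both genotypes. Pnpla2, adipose triglyceride lipase, which takes the first fatty acid off, had 9.33 and 9.64 in knockout and 9.11 and 9.54 in wild type at day 6, against 10.72 and 10.40 in knockout and 9.23 in the wild-type array of day 0. Its wild-type day 0 array lay within the range of day 6, and the change was -0.60 ± 0.28 (SE; limma adjusted p = 0.223). Lipe, hormone-sensitive lipase, had 9.49 and 9.97 in knockout and 9.26 and 9.78 in wild type at day 6, against 10.23 and 10.09 in knockout and 9.60 in the wild-type array of day 0 (-0.29 ± 0.20, SE).

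Of 5 genes grouped as uptake, among them the glycerol channel Aqp7, 3 fell. Aqp7, the channel through which fat cells release glycerol, had 5.45 and 6.65 in knockout and 6.08 and 5.93 in wild type at day 6, against 8.89 and 7.95 in knockout and 8.08 in the wild-type array of day 0. It was 4.75-fold lower (-2.25 ± 0.34, SE; limma adjusted p = 0.0109), with no overlap of the days. Lpl, the lipase that frees fatty acids from circulating lipoproteins, had 8.77 and 9.44 in knockout and 9.68 and 8.72 in wild type at day 6, against 11.33 and 10.88 in knockout and 10.65 in the wild-type array of day 0 (-1.79 ± 0.30, SE). For Cd36, a fatty acid receptor also found on endothelium, macrophages and muscle, values were 8.69 and 9.92 in knockout and 10.68 and 9.60 in wild type at day 6, against 11.28 and 10.95 in knockout and 11.33 in the wild-type array of day 0. It passed narrowly (-1.56 ± 0.38, SE; limma adjusted p = 0.0465; 0.031 to 0.158 over 14 alternative settings). Slc2a4, the insulin-responsive glucose transporter of fat and muscle, lay between 7.48 and 8.31 at day 6 and between 8.30 and 10.48 at day 0 and did not pass (-1.29 ± 0.36, SE; limma adjusted p = 0.0682). Fabp4, a fatty acid carrier of adipocytes that macrophages and endothelium also make, lay between 10.90 and 11.59 at day 6 and between 11.16 and 11.96 at day 0 (-0.47 ± 0.20, SE; limma adjusted p = 0.188).

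The enzymes that make fatty acids showed no common change. Acly, which makes cytosolic acetyl-CoA, lay between 9.87 and 10.85 at day 6 and between 9.88 and 10.63 at day 0. Fasn, fatty acid synthase, lay between 9.24 and 10.86 at day 6 and between 9.93 and 11.45 at day 0. Acaca, which makes malonyl-CoA, had 9.97 and 9.87 in knockout and 8.74 and 9.86 in wild type at day 6, against 9.68 and 9.40 in knockout and 9.12 in the wild-type array of day 0. Their fitted changes were 0.21 ± 0.25, -0.20 ± 0.38 and 0.30 ± 0.27 (SE), and for each of the 3 the lowest day 6 value was that of wild-type replicate 1. A second probe set of Acaca, at a lower level, also overlapped between the days (7.82 to 9.23 at day 6). Thrsp and Me1 did fall. Thrsp, the lipogenic regulator Spot 14, had 5.11 and 5.63 in knockout and 5.77 and 5.31 in wild type at day 6, against 9.12 and 7.81 in knockout and 8.43 in the wild-type array of day 0 (-3.02 ± 0.33, SE; limma adjusted p = 0.00385). Me1, malic enzyme, a source of NADPH for lipid synthesis, had 9.88 and 10.00 in knockout and 10.10 and 9.84 in wild type at day 6, against 10.71 and 10.54 in knockout and 10.53 in the wild-type array of day 0. That is a small fall of 0.64 on the log2 scale with tight replicates (SE 0.13; limma adjusted p = 0.0265), and a second Me1 probe set also lay lower on all day 6 arrays (8.97 to 9.13 against 9.96 to 10.04). Me1 passed in 9 of 14 alternative settings.

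Of 5 triglyceride synthesis genes, 1 fell, 1 rose and 3 did not pass. Gpd1, which makes the glycerol 3-phosphate backbone, had 6.23 and 7.88 in knockout and 7.64 and 7.24 in wild type at day 6, against 11.65 and 11.05 in knockout and 10.10 in the wild-type array of day 0. It was 12.5-fold lower (-3.64 ± 0.50, SE; limma adjusted p = 0.00781), with no overlap of the days. Agpat2, the acyltransferase that makes phosphatidic acid, had 10.23 and 10.56 in knockout and 10.72 and 10.92 in wild type at day 6, against 9.87 and 9.68 in knockout and 9.75 in the wild-type array of day 0. It was 1.74-fold higher (0.80 ± 0.16, SE; limma adjusted p = 0.0266), passing in 8 of 14 alternative settings and not without wild-type day 0 replicate 1, wild-type day 6 replicate 1, knockout day 6 replicate 2 or either knockout day 0 array, nor without both arrays with Xist signal. The last enzyme of the pathway, Dgat2, lay between 10.66 and 11.02 at day 6 and between 10.65 and 11.37 at day 0. Pck1, which feeds glycerol synthesis from pyruvate in fat cells, had 5.70 and 7.52 in knockout and 6.45 and 5.26 in wild type at day 6, against 8.31 and 7.35 in knockout and 7.34 in the wild-type array of day 0. It varied as much within day 6 as between the days (-1.33 ± 0.51, SE; limma adjusted p = 0.155). Lpin1, the phosphatidic acid phosphatase, lay between 8.03 and 9.11 at day 6 and between 7.71 and 10.52 at day 0.

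Of the 3 transcription factors, Pparg fell. Its values were 7.78 and 8.32 in knockout and 7.71 and 8.43 in wild type at day 6, against 9.28 and 9.45 in knockout and 8.82 in the wild-type array of day 0 (-1.08 ± 0.24, SE; limma adjusted p = 0.0351). Pparg passed in 9 of 14 alternative settings, and its change in wild type alone was -0.74 ± 0.35 (SE). Cebpa had 9.01 and 9.57 in knockout and 9.59 and 9.28 in wild type at day 6, against 10.24 and 10.25 in knockout and 9.52 in the wild-type array of day 0 (-0.61 ± 0.24, SE). Here the wild-type array of day 0 lay within day 6. Mlxipl, which encodes the carbohydrate-responsive factor ChREBP, had 6.06 and 6.07 in knockout and 6.37 and 5.63 in wild type at day 6, against 8.65 and 7.70 in knockout and 6.34 in the wild-type array of day 0, so the days were apart in knockout and overlapped in wild type (-1.40 ± 0.43, SE; limma adjusted p = 0.0864).

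Of the 3 further genes, Cyp2e1 and Car3 fell. Cyp2e1, a cytochrome P450 of liver and fat, had 5.67 and 5.93 in knockout and 5.39 and 6.74 in wild type at day 6, against 11.13 and 10.52 in knockout and 7.33 in the wild-type array of day 0. It had the largest standard error of the members (-3.52 ± 0.78, SE; limma adjusted p = 0.0338), and the wild-type day 0 array was far under both knockout day 0 arrays. Cyp2e1 passed in 9 of 14 alternative settings. Car3, a carbonic anhydrase abundant in fat and muscle, had 11.13 and 11.78 in knockout and 10.47 and 11.12 in wild type at day 6, against 12.99 and 12.87 in knockout and 12.47 in the wild-type array of day 0 (-1.56 ± 0.22, SE; limma adjusted p = 0.00921). Ucp1, the heat-producing uncoupling protein that marks brown and beige fat, had 4.40 and 3.95 in knockout and 4.59 and 4.16 in wild type at day 6, against 4.03 and 4.12 in knockout and 4.17 in the wild-type array of day 0. No group of arrays stood apart, and all values were close to those of the sex-linked genes where these were off.

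Other genes of these pathways moved less uniformly. Over 5 lists of further lipid and adipocyte regulation genes and 1 of fat cell progenitors, 13 of 85 measured genes fell and 5 rose (median -0.23). By the same test 5.62% of all genes fell and 5.85% rose, so the rises are near the share over all genes. The same shares apply to each list below. Of 19 other genes of triglyceride handling, 2 fell and 1 rose. Fitm1, a droplet-forming protein of muscle, changed by -3.14 ± 0.35 and Gpam, the first acyltransferase of triglyceride synthesis, by -1.07 ± 0.21, while Lpin2, a relative of Lpin1, changed by 1.51 ± 0.21 (SE). Fitm2, the relative of Fitm1 found in fat, did not pass (-0.76 ± 0.20, SE; limma adjusted p = 0.0571). Of 14 other lipogenesis genes, 0 fell and 2 rose at a limma adjusted p under 0.05 (7 had an unadjusted p under 0.05): Scd2, a fatty acid desaturase, at 1.73 ± 0.37, and Pgd, an NADPH source, at 0.86 ± 0.20 (SE). Elovl5 (-1.01 ± 0.28) and Pcx (-1.34 ± 0.38, SE) did not pass.

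In the insulin response and uptake list, Pde3b, through which insulin restrains lipolysis, and Irs1, an insulin receptor substrate, fell by 1.77 each on the log2 scale (SE 0.30 and 0.33). Fabp5, the epidermal relative of Fabp4, rose by 1.14 ± 0.21 (SE); the other 12 of its 15 genes did not pass. Of 15 regulators, 5 fell and 0 rose, among them Ppargc1a, a coactivator of mitochondrial genes (-3.35 ± 0.26), Ebf1, a factor of adipocyte differentiation (-1.61 ± 0.34), the leptin receptor gene Lepr (-0.94 ± 0.19) and Cebpd (-0.78 ± 0.18, SE). Fatty acid oxidation genes changed little: Acadvl (-0.81 ± 0.16) and Acadm (-0.59 ± 0.14, SE) fell and the other 10 of 12 did not pass. Of 10 genes linked to fat cell progenitors, Cd34 (-1.09 ± 0.18) and Pi16 (-2.51 ± 0.48) fell and Cd24a rose (0.92 ± 0.18, SE).

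Markers of other tissue layers moved at the same time (of all genes, 5.62% fell and 5.85% rose). Of 16 skeletal muscle markers, 13 fell and 0 rose (median -1.96); their mean was 9.26 and 9.75 in knockout and 8.47 and 9.46 in wild type at day 6, against 12.23 and 11.93 in knockout and 10.81 in the wild-type array of day 0. Slc2a4, Car3, Fitm1, Ppargc1a and Lpl are also expressed in muscle. Of 10 sebaceous gland markers, 4 fell and 1 rose (median -2.70); their mean was 6.27 and 9.09 in knockout and 7.12 and 8.93 in wild type at day 6, against 10.19 and 10.29 in knockout and 9.62 in the wild-type array of day 0. The replicate 1 arrays of day 6 were thus lowest for sebaceous markers. Knockout day 6 replicate 1 was the lowest of the 4 for 13 and the highest for 2 of the 32 adipocyte genes (lowest for 18.2% and highest for 23.9% of all genes). Wild-type day 6 replicate 1 was the lowest for 11 and the highest for 11 of them. Over all genes it was the lowest for 29.3% and the highest for 40.7%, so these 2 counts are near the shares over all genes. Of 10 fibroblast markers, 5 fell and 0 rose (median -1.58). Of 11 keratinocyte markers, 1 fell and 2 rose (median 0.32). Of 12 endothelial markers, 0 fell and 1 rose (median 0.16), and of 12 macrophage markers 0 passed the limma threshold (1 had an unadjusted p under 0.05; median -0.20). The sebaceous marker Mc5r, a melanocortin receptor, had 4.97 and 6.74 in knockout and 5.34 and 5.95 in wild type at day 6, against 9.29 and 9.15 in knockout and 9.96 in the wild-type array of day 0, while Pecam1 of endothelium (7.98 to 9.81) and Csf1r of macrophages (8.64 to 10.09) had values well above the off level on all arrays. The part of these cell types in the changes of the adipocyte genes was not tested.

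**Figure D3:**
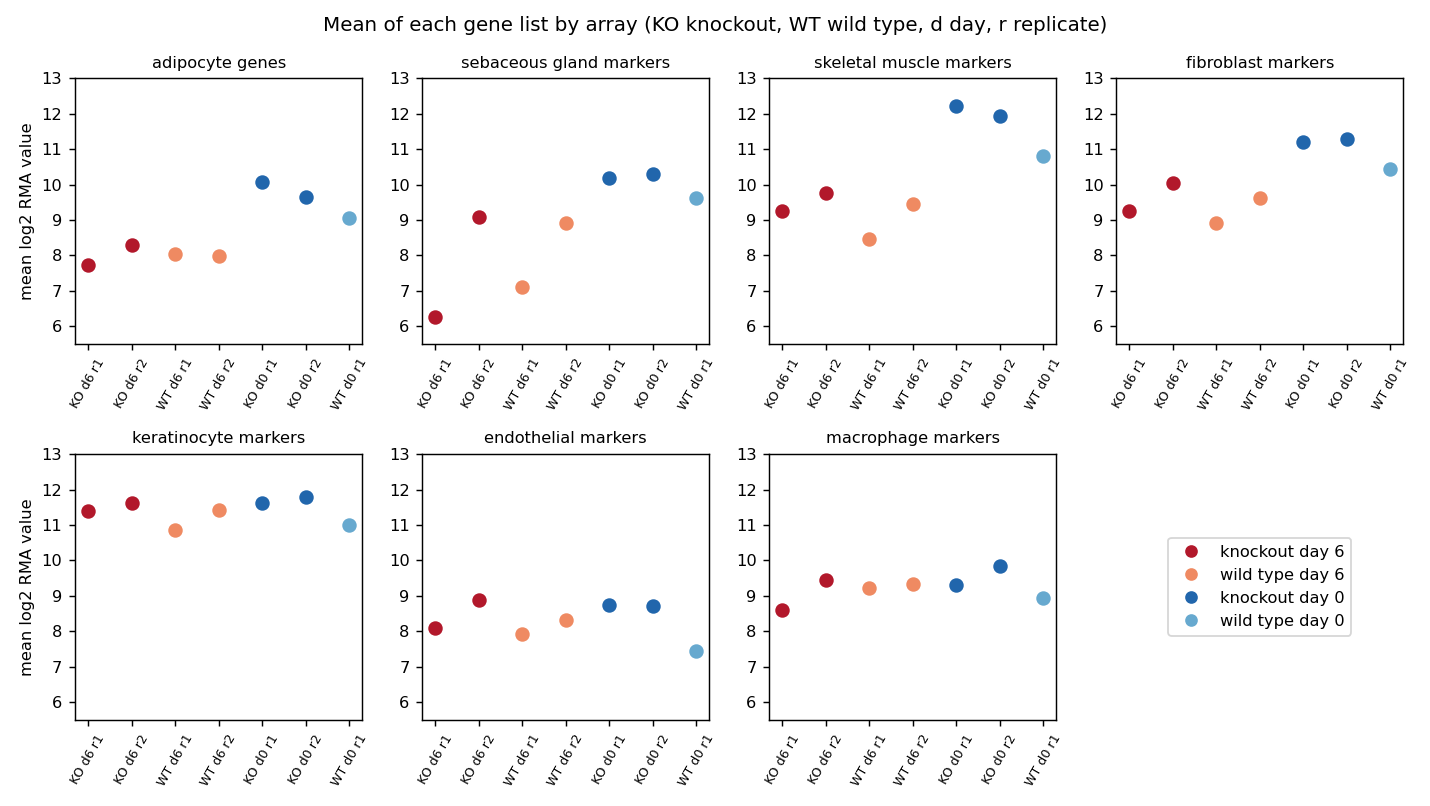
Mean log2 RMA value of the 32 adipocyte genes and of 6 marker lists on each of the 7 arrays, day 6 left of day 0. Adipocyte, muscle and fibroblast means are lower on all 4 day 6 arrays than on all day 0 arrays, the sebaceous mean too, while keratinocyte, endothelial and macrophage means overlap between the days.

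Within knockout alone, whose 4 arrays all lacked Xist signal, 20 of the 32 fell and 0 rose at day 6 against day 0 by limma (22 had an unadjusted p under 0.05), against 9.07% and 7.24% of all genes. The median change was -1.39 (0.10 over all genes). Pnpla2 (-1.07 ± 0.22), Slc2a4 (-1.85 ± 0.33), Cebpa (-0.96 ± 0.23) and Mlxipl (-2.12 ± 0.36, SE), which did not pass over both genotypes, fell in this comparison. The largest falls were Lep (-6.29 ± 0.17), Cyp2e1 (-5.02 ± 0.43), Adipoq (-4.94 ± 0.54), Gpd1 (-4.29 ± 0.51), Retn (-4.25 ± 0.45) and Cidec (-4.20 ± 0.71, SE). The count was 9 without knockout day 6 replicate 1 and 10 without knockout day 0 replicate 1.

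In wild type, against the single day 0 array, 6 of the 32 fell and Agpat2 rose (1.07 ± 0.23, SE; limma adjusted p = 0.0396), against 3.61% and 3.51% of all genes. The 6 were Lep (-5.09 ± 0.21), Adipoq (-4.58 ± 0.66), Retn (-3.13 ± 0.55), Thrsp (-2.89 ± 0.52), Plin1 (-2.48 ± 0.43) and Car3 (-1.68 ± 0.36, SE), and all 6 had also fallen in knockout. Gpd1 (-2.66 ± 0.62, SE; limma adjusted p = 0.0538) and Aqp7 (-2.07 ± 0.54, SE; limma adjusted p = 0.0730) missed the threshold. The median over the 32 was -0.65 (0.00 over all genes). Leaving out wild-type day 6 replicate 2 and adding a term for arrays with Xist signal are the same fit. It compares the 2 arrays with Xist signal (median -0.76). Fewer members passed in that fit, and more with the 3 wild-type arrays alone in the fit. Between the 2 arrays with Xist signal, wild-type day 6 minus wild-type day 0, with no replicate, 24 of 32 members were lower (44.7% of all genes), led by Lep at -5.09, Adipoq at -4.36, Retn at -2.73 and Thrsp at -2.66.

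**Figure D4:**
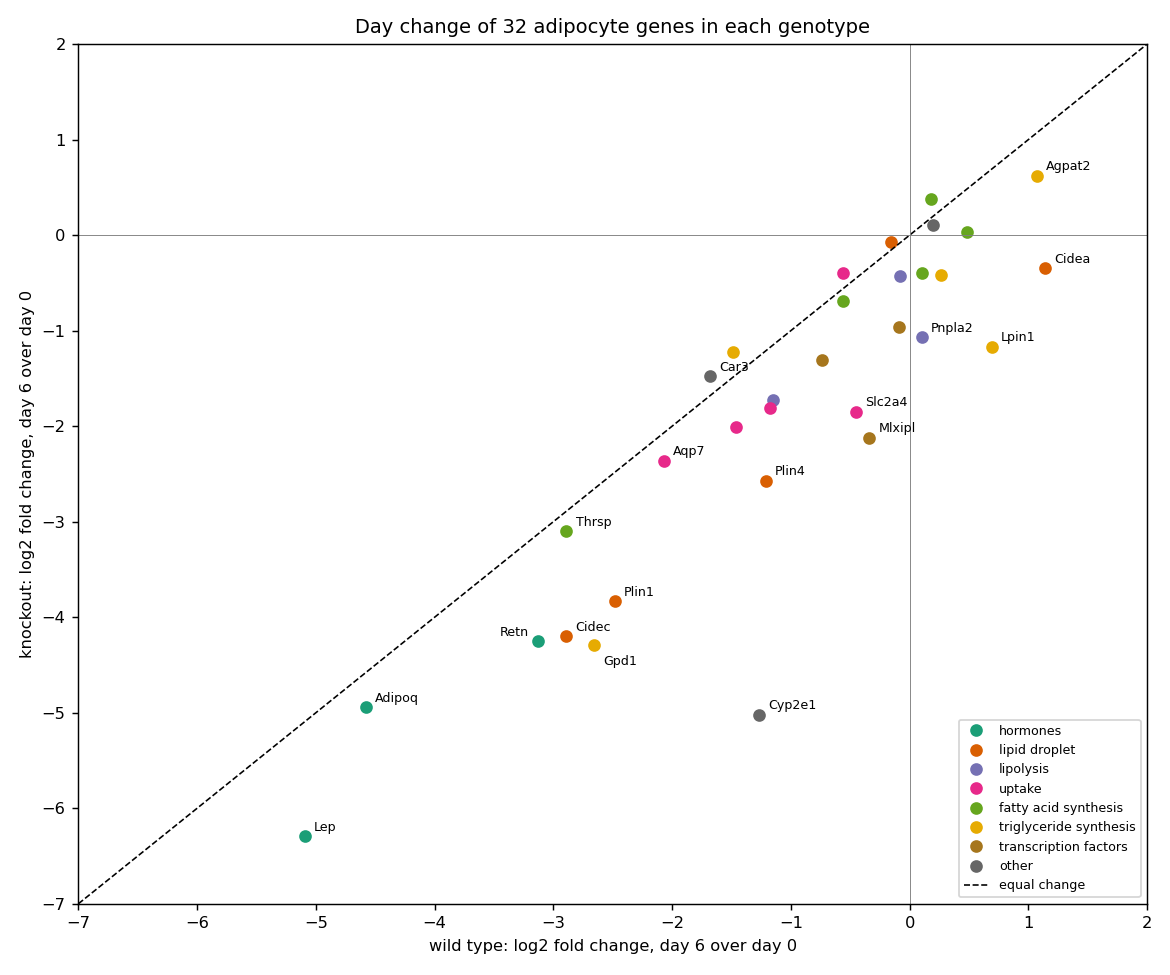
Log2 fold change of day 6 over day 0 in knockout (y axis) against that in wild type (x axis) for the 32 adipocyte genes, coloured by role; the dashed line marks equal change. Most points lie under the line (27 of 32), with Cyp2e1 farthest from it at -5.02 in knockout and -1.27 in wild type.

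The day change was more negative in knockout than in wild type in 27 of the 32 (median difference -0.57), and in 8786 of all 19937 genes. The same held for 16 of 16 muscle markers (median -0.62), 12 of 12 endothelial markers (-0.93), 12 of 12 macrophage markers (-1.0), 7 of 10 sebaceous markers (-1.12), 7 of 10 fibroblast markers (-0.66) and 8 of 11 keratinocyte markers (-0.29), so this offset is not particular to the adipocyte genes. The wild-type change rests on 1 day 0 array, which has Xist signal. The difference itself passed the limma threshold for Cyp2e1 (-3.75 ± 0.69, SE; adjusted p = 0.0390, 0.0115 to 0.135 over 12 alternative settings) and for no other member, with 10 at an unadjusted p under 0.05; over all genes 1.35% were lower and 1.76% higher. Cyp2e1 did not pass without any 1 of the 4 knockout arrays (adjusted p 0.0573 to 0.135). Cidea did not pass (-1.48 ± 0.37, SE; limma adjusted p = 0.0929), nor did Lep (limma adjusted p = 0.0773), whose day 6 values lie close to the off level in both genotypes, so that its difference carries little besides that of day 0.

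No difference between knockout and wild type passed at day 6: 0 of 32 members and 0% of all genes passed limma, and 0 of 32 had an unadjusted p under 0.05 (1182 of 19937 genes). Iqgap1 itself did not pass here either (-1.73 ± 0.20, SE; limma adjusted p = 0.503). The differences lay between -0.84 ± 0.48 (SE) for Cd36 and 0.76 ± 0.48 (SE) for Fasn, with a median of -0.01. The day 6 values of Lep lie close to the off level on all 4 arrays, so its difference between genotypes there is not informative. Against wild-type replicate 2, the day 6 wild-type array without Xist signal, the differences lay between -0.94 for Cyp2e1 and 1.35 for Pck1, with a median of 0.01.

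At day 0, 7 of 32 members were higher in knockout and 0 lower by limma (11 had an unadjusted p under 0.05), against 8.53% higher and 5.86% lower of all genes. They were Cyp2e1 (3.49 ± 0.53), Lpin1 (2.27 ± 0.51), Mlxipl (1.84 ± 0.44), Plin4 (1.81 ± 0.39), Slc2a4 (1.79 ± 0.40), Pnpla2 (1.33 ± 0.27) and Lep (1.19 ± 0.21, SE), with adjusted p between 0.00945 (Cyp2e1) and 0.0365 (Mlxipl). Adipoq (0.01 ± 0.66), Thrsp (0.04 ± 0.52) and Retn (0.31 ± 0.55, SE) did not pass. Of the 32 differences 28 were positive, against 8317 of all 19937 genes. Positive differences were also found in 16 of 16 muscle markers (6 past the threshold, median 1.02), 12 of 12 endothelial markers (4 past it, median 1.30), 10 of 11 keratinocyte markers (median 0.49), 9 of 10 fibroblast markers (0.54), 9 of 12 macrophage markers (0.66), 7 of 10 sebaceous markers (0.60) and 8 of 10 progenitor genes (0.64). The wild-type array was the lowest of the 3 in 24 of the 32 adipocyte genes, against 36.0% of all genes, and knockout replicate 1 the highest in 23 (21.7%). This comparison rests on 1 wild-type array, which has Xist signal; with a term for such arrays 0 members passed, and the 7 differences were then 2.14 for Cyp2e1, 2.57 for Mlxipl, 1.59 for Plin4, 1.52 for Lpin1, 1.20 for Lep, 1.05 for Slc2a4 and 0.89 for Pnpla2. All 7 kept their direction with that term, but only wild type at day 6 has arrays of both kinds. The term therefore rests on that single pair and cannot separate genotype from this split at day 0. Without knockout day 0 replicate 1, only Cyp2e1 passed (1 of 32).

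Over both days, 0 of 32 members and 0% of all genes differed between knockout and wild type by limma (5 had an unadjusted p under 0.05, and 3729 of 19937 genes did). The 5 were Plin4 (0.99 ± 0.35), Slc2a4 (0.94 ± 0.36), Fasn (0.96 ± 0.38), Lpin1 (1.15 ± 0.47) and Car3 (0.58 ± 0.22, SE), all higher in knockout, with adjusted p from 0.245 to 0.264. The median over the 32 was 0.29, and it was -0.01 without the wild-type day 0 array.

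**Figure D5:**
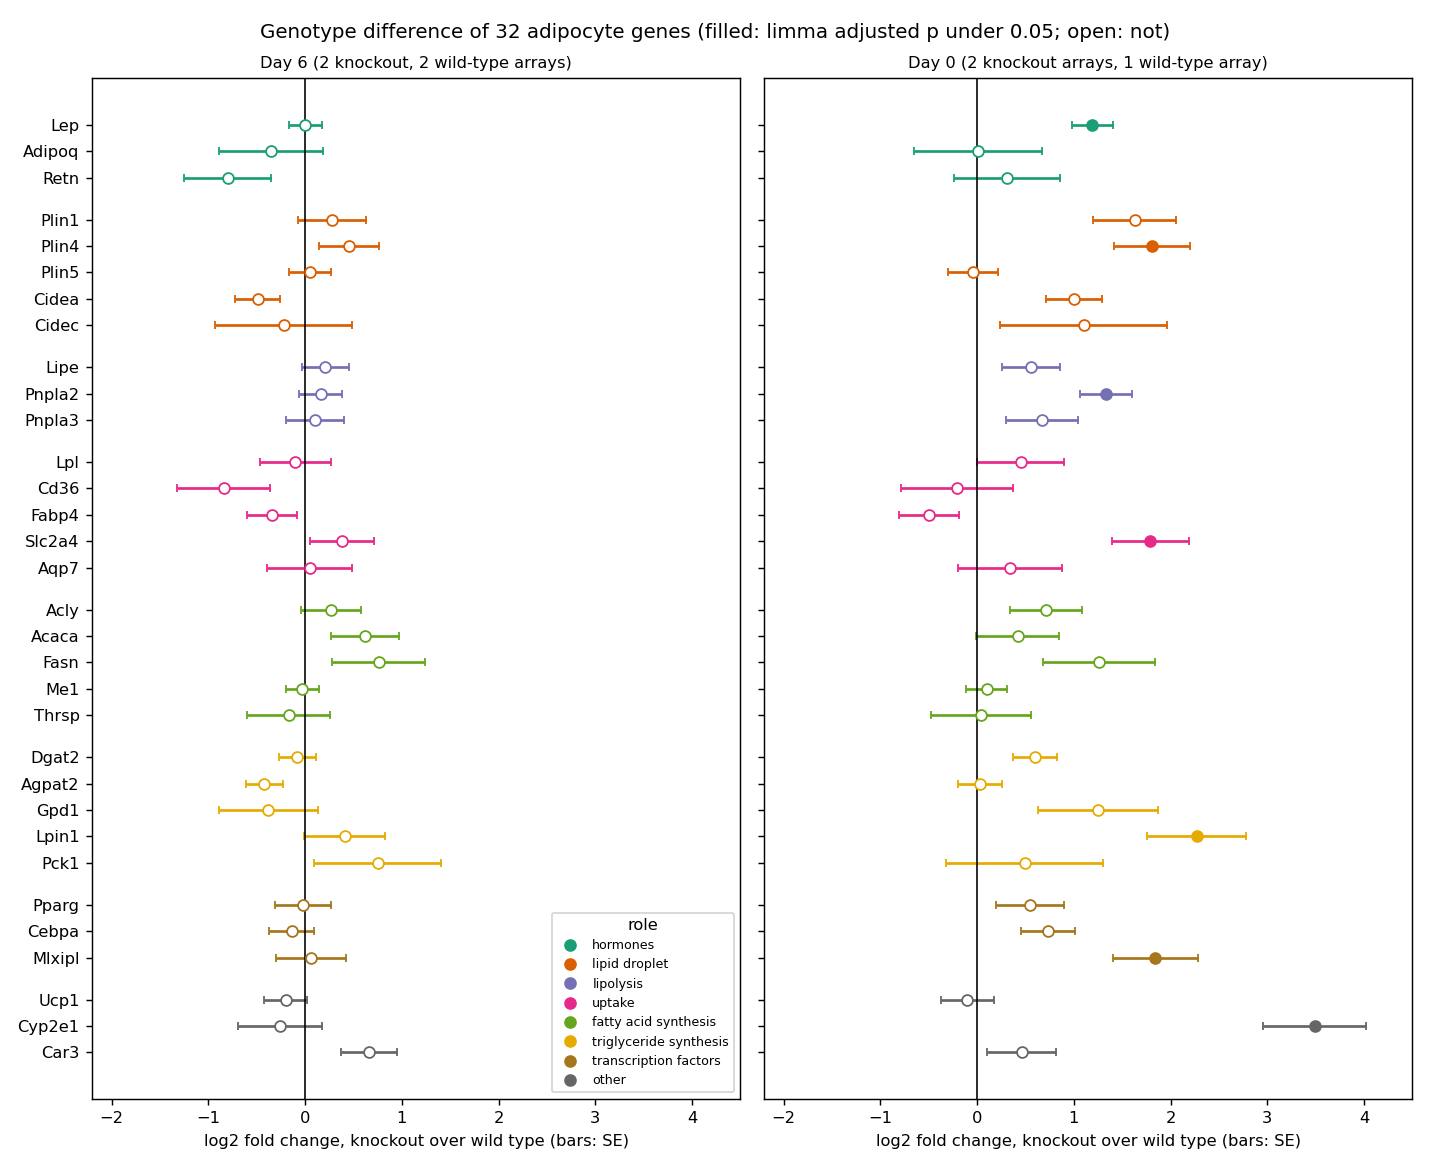
Log2 fold change of knockout over wild type at day 6 and at day 0 for the 32 adipocyte genes, with limma standard errors as bars; filled points passed an adjusted p of 0.05. Day 6 points lie within -0.84 and 0.76 and none is filled, while 7 are filled at day 0, all right of 0.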

How the data were processed

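RNA of mouse tissue was hybridised to Affymetrix Mouse Gene 1.0 ST arrays. The deposited values are log2 expression values that the authors made by RMA under R 2.11.1 (per the submitters' processing notes). From a range of 2.37 to 13.38, the scale was taken as log2. Array batches and further RMA settings are not given in the sources used here. The number of arrays, not depth, limits precision. Sample titles gave the groups and replicate numbers.

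Of 34760 probe sets, 21640 had 1 gene symbol in the platform annotation, 1321 had several and 11799 had none. Each gene was taken from the probe set naming it alone of highest mean over all arrays, for 19937 genes (19855 matched to RefSeq by gene identifier). Me1 and Acaca had 2 such probe sets.

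Tests were two-sided, with limma 3.58.1 in R 4.3.3 and Benjamini-Hochberg adjustment over all genes at 0.05. An additive fit (residual degrees of freedom 4) gave day over both genotypes and genotype over both days. A model of 4 group means, with 3 such degrees of freedom, gave the other comparisons; both used all 7 arrays. The lone wild-type day 0 array was assumed to vary like the other groups. The day effect of the additive fit was first tested on simulated data with known changes. The model of group means was not tested in this way. Comparisons over days share arrays and are not independent. The members, their roles and the pathway and marker lists were chosen with earlier results of these data known. All members are named; up to 3 of each role with the smallest p for day, with Lep, Adipoq, Pparg and Ucp1, have values on every array, and other lists give up to 4 genes by the same p besides fixed defining markers. Alternatives were a replicate block, moderated variance trends, a filter on a mean of at least 6, the mean of all probe sets, arrays centred on their medians, the compared groups alone, a term for or removal of arrays with Xist signal, and leaving out each array.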

Additional observations from a re-analysis of the deposited data

Results flagged for a closer look

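Cyp2e1 was singled out because the difference between genotypes in its day change passed the limma threshold: the change in knockout minus that in wild type was -3.75 ± 0.69 (SE; adjusted p = 0.0390), with -5.02 in knockout and -1.27 in wild type. Its day 0 values were 11.13 and 10.52 in knockout against 7.33 in wild type, where 1 array was made, while its day 6 values overlapped between genotypes.

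For Lpin1 and Dgat2 (2 of 32 members) the arrays of the days lay apart in knockout and apart in the opposite direction in wild type, where day 0 is 1 array with Xist signal. Such opposite separation held for 14.8% of all genes, and in this direction, knockout lower and wild type higher, for 5.13%, so 2 members are no excess. Lpin1 was lower on both knockout day 6 arrays than on both knockout day 0 arrays, and higher on both wild-type day 6 arrays than on the wild-type day 0 array; the difference of the changes was -1.86 ± 0.66 (SE) and did not pass (limma adjusted p = 0.216). For Dgat2 the same held, with a difference of -0.68 ± 0.29 (SE; limma adjusted p = 0.299).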

How the results depend on the processing

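Across the 14 alternatives for day over both genotypes, 8 members passed in every one: Adipoq, Aqp7, Car3, Gpd1, Lep, Plin1, Retn and Thrsp. With single arrays left out, the number that fell ranged from 10 to 20 and the number that rose from 0 to 1. Leaving out the wild-type day 0 array, or both arrays with Xist signal, leaves the knockout change alone. Neither setting tests day over both genotypes. Leaving out wild-type day 6 replicate 2 gives the same fit as a term for Xist signal, so the 14 are not all distinct. The median change of the members lay between -1.41 and -1.01 over all alternatives. Leaving out single arrays gave 9 to 20 falls in knockout, 3 to 9 falls and 0 to 2 rises in wild type, 1 to 9 rises in knockout against wild type at day 0, 0 to 2 rises in knockout over both days and 0 to 1 members in the difference of the day changes. In wild type, 12 fell and 0 rose with only the compared groups in the fit, 3 fell and 0 rose with a term for Xist signal, and 2 rose with centred arrays, which also gave 1 rise in knockout. At day 0, 13 members were higher in knockout with only the compared groups and 0 with a term for Xist signal. The genotype median over both days was 0.29, with -0.01 to 0.49 over single arrays left out. The day 6 genotype median of -0.01 became 0.01 with the mean of all probe sets, with a term for Xist signal or without those arrays, and ranged from -0.16 to 0.24 with single arrays left out. The cause of these changes was not tested. With the replicate number as a block, 15 members fell and 1 rose by day, 0 rose in wild type and 0 differed in the day change, so the Cyp2e1 call was lost. The numbers were not taken as pairs because the labels do not say what a shared number means. Same-numbered arrays correlated in their deviations at 0.227, 0.086 and 0.037, which does not settle whether they are pairs. Over all genes, centring gave 973 falls and 1575 rises (61.8% rises), against 1120 and 1166 (51.0%), and shifted the median genotype difference at day 0 to -0.20, against -0.09. All-gene counts with other settings ranged from 368 to 2112 falls and 359 to 1915 rises by day, 789 to 2112 falls and 520 to 1915 rises in knockout, 496 to 937 falls and 479 to 1272 rises in wild type, 427 to 2194 lower and 255 to 2784 higher at day 0, and 15 to 528 lower and 128 to 510 higher in the difference of day changes. Genotype over both days gave 0 to 220 lower and 0 to 616 higher, and at day 6 0 to 30 and 0 to 13. Without the wild-type day 0 array, comparisons that need it could not be fitted. The filter on a mean of at least 6 removed Plin5 and Ucp1.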
